A study of Sus scrofa with 6 samples.

Results

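The enzymes that burn fatty acids inside mitochondria, and those that make and use ketone bodies there, were examined in pig auricular (external ear) cartilage cells in primary culture, treated with GW0742. GW0742 is a synthetic agonist of PPARD, a nuclear receptor that senses lipids. The members are 38 listed enzymes of mitochondrial fatty acid activation, beta-oxidation, electron transfer and ketone bodies, with the carnitine shuttle left out. They were found by gene symbol (31 of them) or, where no model carried the symbol, by protein name in the deposited annotation (5 of them). ACOT2, a thioesterase, and MLYCD, malonyl-CoA decarboxylase, matched no model and have no value here. The 36 members found correspond to 39 gene models out of 19670 in the series, because ACAD8, ECHS1 and ACSL5 each have 2 models. Of the 39 models, 38 carry a mitochondrial cellular component in the deposited annotation, against 8.4% of all models, and 7 of these also carry a peroxisomal one. The exception is the model of PCCA.

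In beta-oxidation, an acyl-CoA synthetase first joins a fatty acid to coenzyme A. Inside the mitochondrion, rounds of dehydrogenation, hydration, a further dehydrogenation and thiolysis then shorten the chain and release acetyl-CoA, while the electron transfer flavoprotein passes electrons to the respiratory chain. Many of these genes are known targets of the PPAR receptors in liver, heart and muscle. Ketone bodies are made from acetyl-CoA mainly in the liver, and other tissues turn them back into acetyl-CoA.

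The cells were freed by enzymes from the external ears of 1 pig of 4 months of age, a Duroc x (Landrace x Large White) hybrid with wild-type PPARD. The 3 libraries of the DMSO group came from cells kept with the solvent alone, and the 3 libraries of the GW0742 group from cells kept with the agonist, both for 24 h. By its title, the series is about PPARD and cartilage growth in the external ear. Nothing in the labels says that the libraries of a group came from separate cultures, and p-values here measure the spread of these libraries alone, which may be a technical one.

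Between 13133980 and 16913745 estimated reads were assigned per library, and 14146 models (71.9%) were deep enough to test. As a check of the treatment, ANGPTL4, a secreted inhibitor of lipoprotein lipase, rose from 21.3 to 187 counts per 1e6 reads (CPM) at an adjusted p of 0.000193 in edgeR's quasi-likelihood test, and PDK4, which switches off pyruvate dehydrogenase, rose from 0.28 to 4.72 CPM (adjusted p = 0.00151). Of 11 chondrocyte markers, all were found and 9 tested. ACAN fell in edgeR and COL11A1 was called lower as well by DESeq2. Their summed level was 2358 to 2499 CPM in the DMSO libraries and 1923 to 2052 CPM in the GW0742 libraries, with MATN1 at 0.10 and 0.11 CPM, and CNMD at 0 and 0.06 CPM. Of 9 endothelial markers 6 were found, and the summed level of these was 25.3 to 30.2 CPM with DMSO and 55.4, 67.1 and 36.0 CPM in GW0742 replicates 1, 2 and 3. All 5 that could be tested were above 0 at an unadjusted p under 0.05, beside 7.93% of all tested models. None passed in edgeR after adjustment, and DESeq2 called 2 higher, beside 1.46% of all tested models. Muscle and smooth muscle markers, 6 of them tested, had a median log2 fold change of -0.29. Of these, 0 were called by edgeR and 2 were called lower by DESeq2. Library by library, the 7 found added up to 8564, 8465 and 8128 CPM (DMSO) and 7824, 6172 and 7661 CPM (GW0742). Fibroblast markers, 6 of them tested, had a median of 0.03, and none was called. FAP was higher and COL1A2 lower without overlap. The fibroblast sums were far above the chondrocyte sums, at 56556, 61500 and 58061 CPM (DMSO) and 56632, 50942 and 54289 CPM (GW0742). In bulk RNA, fewer cells of a type and less RNA per cell cannot be told apart, and the part of these marker differences in the members' values was not tested.

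Taken as a group, the enzymes differed little between GW0742 and DMSO, and none passed the test. Of the 39 models, 37 (of 34 members) passed the filter on low counts. In edgeR, with p-values adjusted over all tested models, 0 were higher and 0 lower at the threshold of 0.05, while 0.184% of all tested models were higher and 0.0778% lower. DESeq2 called 1 model higher, ETFB, and 0 lower, against 1.46% and 1.65% of all tested models. At an unadjusted p under 0.05 in edgeR, 6 of the 37 (16.2%) were higher, beside 7.93% of all tested models, and 3 (8.11%) were lower, beside 8.91%. Only 1 was lower without DMSO replicate 1, without DMSO replicate 2 or without GW0742 replicate 3. The 6 higher models include both models of ACSL5. The 3 lower ones include the ACADVL model with the symbol, which has few reads. With the models of ACADVL summed, its log2 fold change was 0.107. The 3 GW0742 libraries lay above the 3 DMSO libraries without overlap in 9 models (24.3%), beside 11.4% of all tested models, and below them in 4 (10.8%), beside 12.1%. The 9 again include both models of ACSL5. The 4 include the same ACADVL model and the PCCA model with the symbol. With its models summed, PCCA had a log2 fold change of -0.003.

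The fold changes themselves were small. With GW0742 19 of the 37 models (51.4%) had a log2 fold change above 0, as did 49.7% of all tested models. The median was 0.02 on the log2 scale, against -0.00 over all tested models. The median of the absolute log2 fold change was 0.15 for the enzymes and 0.14 for all tested models. In 17 models the fold change was under 0.1 on the log2 scale in either direction, in 10 it was from 0.1 to 0.25, in 8 from 0.25 to 0.5, and in 2 it was 0.5 or more. Those 2 were minor models of ACSL5 and ACADVL. In the 19 models outside the rule for named genes, log2 fold changes ran from -0.21 to 0.30 with standard errors (SE) of 0.07 to 0.30 and adjusted p-values of at least 0.401 in edgeR.

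**Figure D1:**
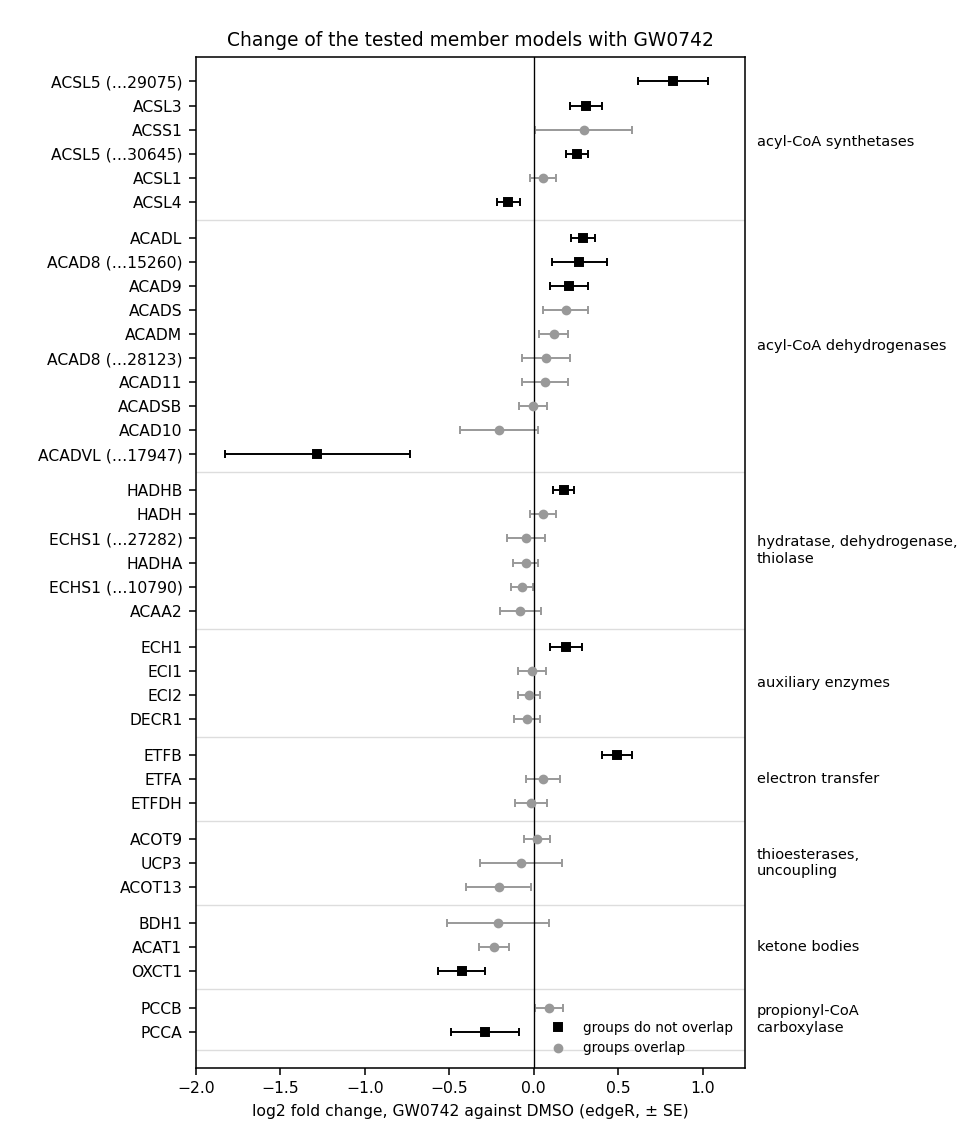
Log2 fold change of GW0742 against DMSO (x axis, edgeR, bars ± SE) for the 37 tested models, grouped by step of the pathway, with black squares where the 3 libraries of one group lie wholly above or below those of the other. Most points lie close to 0, ETFB stands at 0.49 ± 0.09, and the 3 ketone body enzymes all lie below 0.

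Most of the enzymes lay above the middle of all tested models in level. In RPKM, the authors' values of reads corrected for depth and for the length of the model, 24 of the 37 tested models had a mean of at least 10 over the 6 libraries, 11 lay between 1 and 10 and 2 under 1. Their median was 13.4 RPKM, against 7.61 RPKM over all tested models. The highest was ECHS1, the short-chain enoyl-CoA hydratase, at a mean of 120 RPKM, followed by ETFB at 80.9 RPKM, ACAT1 at 67.2 RPKM and HADH, the short-chain hydroxyacyl-CoA dehydrogenase, at 63.9 RPKM. In DMSO, ETFB at 67.2 ± 6.51 and ACAT1 at 72.1 ± 2.86 RPKM (SD, n = 3) stood next to each other within their spread. At the low end, UCP3 and the ACADVL model with the gene's symbol had means of 0.37 and 0.36 RPKM. ACSL6, a synthetase known mainly from brain, with 3 to 7 reads per library, and the uncoupling protein UCP2, with 0, 2 and 0 reads with DMSO and 2, 5 and 5 with GW0742, were too low to test. A count of 3 reads, used as the floor, equals 0.178 to 0.230 CPM and covers counting error only.

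**Figure D2:**
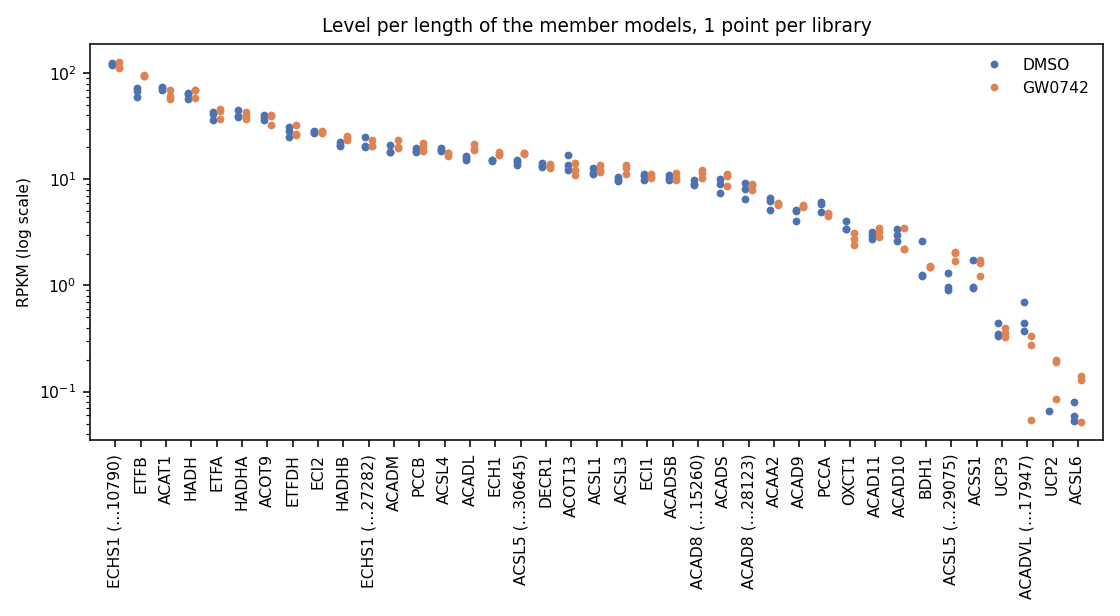
RPKM (y axis, log scale) of each of the 39 models in each of the 6 libraries, in order of the mean, with DMSO in blue and GW0742 in orange; values of 0, which occur in UCP2, are not drawn. Levels run from 120 RPKM for ECHS1 to under 0.1 RPKM for UCP2 and ACSL6, and for most models the points of both groups lie together.

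The electron transfer flavoprotein takes electrons from all the acyl-CoA dehydrogenases and hands them through ETFDH to ubiquinone. Its beta subunit, ETFB (ENSSSCG00000003229), came closest to passing. ETFB was at 56.9, 49.3 and 62.1 CPM in the DMSO libraries and at 80.2, 76.6 and 80.2 CPM in the GW0742 libraries. Every GW0742 library was above every DMSO library, and the mean went from 56.1 ± 6.44 to 79.0 ± 2.07 CPM (SD, n = 3), 40.9% higher. The log2 fold change was 0.49 ± 0.09 (SE), with an adjusted p of 0.0661 in edgeR and of 0.000345 in DESeq2. With models of 1 protein name summed before the test, ETFB passed in edgeR too (adjusted p = 0.0428), where 0.385% of 12193 sums were higher and 0.172% lower. ETFB itself has 1 model, so its own counts were unchanged in that setting, and its log2 fold change was again 0.49. Its adjusted p ran from 0.000345 to 0.249 over the 13 alternatives, highest without DMSO replicate 1, and its log2 fold change from 0.41 to 0.57.

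The alpha subunit, ETFA, which forms a heterodimer with ETFB, was at 55.1, 64.9 and 66.1 CPM with DMSO and at 67.8, 68.6 and 56.7 CPM with GW0742. The groups overlapped (log2 0.05 ± 0.10, edgeR adjusted p = 0.833). ETFDH, the oxidoreductase downstream, was at 80.0 ± 7.48 and 79.1 ± 7.57 CPM (log2 -0.02 ± 0.09). The log2 ratio of ETFB to ETFA within a library was 0.05, -0.40 and -0.09 with DMSO and 0.24, 0.16 and 0.50 with GW0742. The ratio was thus above all DMSO values in every GW0742 library, by 0.45 on average. An exact two-sided permutation test gave p = 0.1, the smallest possible with 3 against 3 libraries, and 0.15 after adjustment over the 3 subunit pairs compared. The summed level of the 3 electron transfer genes was 135, 127 and 145 RPKM with DMSO and 165, 173 and 159 RPKM with GW0742. Most of that difference came from ETFB, at means of 67.2 and 94.7 RPKM. ETFA was at 40.5 and 42.7 RPKM and ETFDH at 28.2 and 28.4 RPKM. The summed endothelial markers were at 55.4, 67.1 and 36.0 CPM in GW0742 replicates 1, 2 and 3, and their part in the ETFB values was not tested.

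Acyl-CoA synthetases activate fatty acids for the later steps. Of the 6 tested models of acyl-CoA synthetases 5 were above 0, with a median log2 fold change of 0.28. In edgeR 3 were higher at an unadjusted p under 0.05 (both models of ACSL5, and ACSL3), beside 7.93% of all tested models. None passed after adjustment. Their summed level was 57.8 ± 1.28 RPKM with DMSO and 63.6 ± 1.39 RPKM with GW0742 (SD, n = 3).

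ACSL5, a long-chain synthetase of the outer mitochondrial membrane and the endoplasmic reticulum, is split over 2 models, both found by protein name. The main one (ENSSSCG00000030645) was at 43.9, 41.2 and 42.8 CPM with DMSO and 51.8, 50.4 and 50.5 CPM with GW0742. The minor one (ENSSSCG00000029075) was at 2.67, 3.98 and 2.88 CPM with DMSO and 6.05, 5.74 and 5.03 CPM with GW0742. In both models all GW0742 libraries were above all DMSO libraries. The log2 fold changes were 0.25 ± 0.06 (edgeR adjusted p = 0.124) and 0.83 ± 0.21 (edgeR adjusted p = 0.120). With both models summed, ACSL5 was at 45.8 ± 0.737 and 56.5 ± 1.18 CPM, a log2 fold change of 0.30 ± 0.06 (edgeR adjusted p = 0.0689). Estimated counts can divide reads between models of 1 protein, so the values of the separate models are uncertain.

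ACSL3, a synthetase of the endoplasmic reticulum and lipid droplets, was at 27.4, 26.1 and 26.3 CPM with DMSO and at 29.4, 32.9 and 36.3 CPM with GW0742. The groups did not overlap (log2 0.31 ± 0.09, edgeR adjusted p = 0.164). ACSL4, which prefers arachidonic acid, stood the other way. Averaged over the 6 libraries it had the highest level per length of the synthetase models, at 18.3 RPKM, though with GW0742 alone it was at 17.4 RPKM and the main ACSL5 model at 17.5 RPKM. ACSL4 was at 85.5, 86.5 and 82.7 CPM with DMSO and at 70.9, 80.1 and 78.3 CPM with GW0742, each GW0742 library below each DMSO library (log2 -0.15 ± 0.07, edgeR adjusted p = 0.305). ACSL1, the main synthetase of fat, liver and heart, was at 40.5 ± 2.25 and 42.0 ± 2.39 CPM, with overlapping groups. ACSS1, which activates acetate in the mitochondrion, was low at 2.80 and 3.47 CPM (log2 0.30 ± 0.29).

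**Figure D3:**
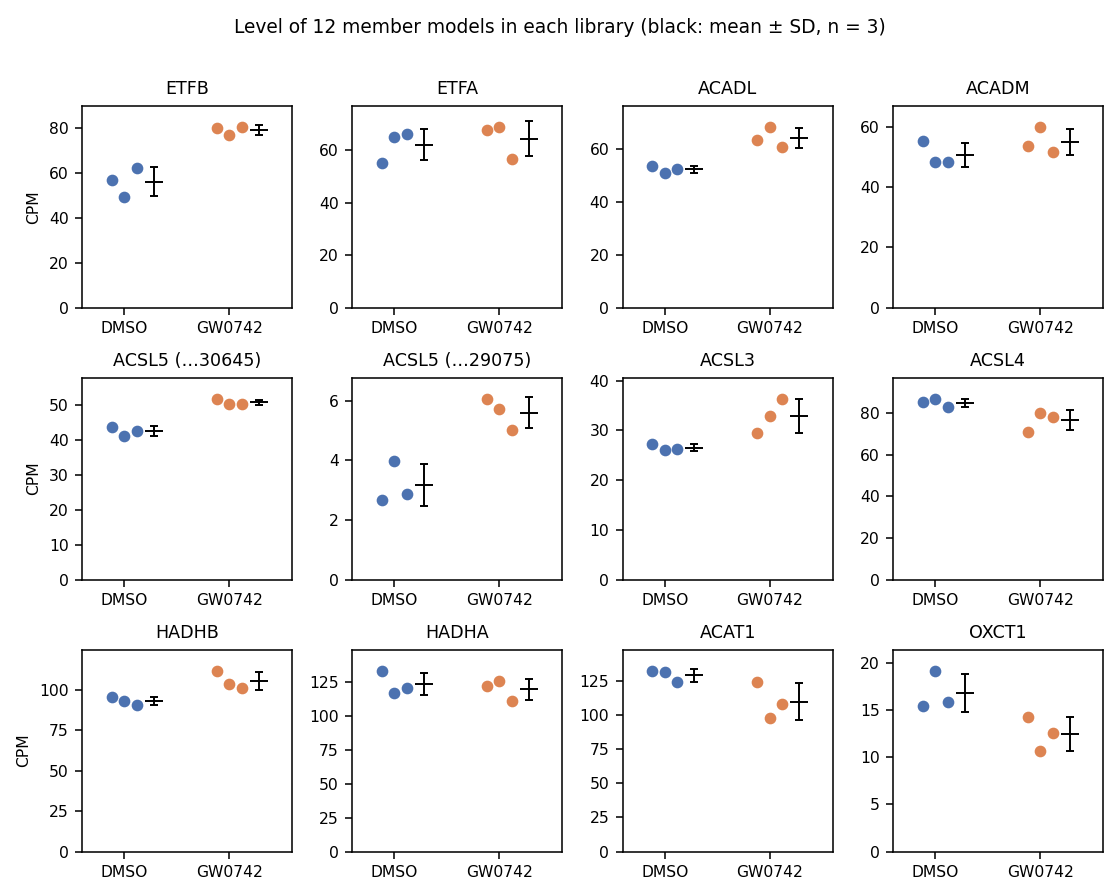
CPM (y axis from 0) of 12 models in the 3 DMSO (blue) and 3 GW0742 (orange) libraries, in replicate order, with the mean ± SD (n = 3) in black beside each group. ETFB, ACADL, both ACSL5 models, ACSL3 and HADHB have all GW0742 points above the DMSO points, ACSL4 and OXCT1 have them below, and ETFA, ACADM, HADHA and ACAT1 overlap.

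The acyl-CoA dehydrogenases carry out the opening oxidation and divide the work by chain length. Of their 10 tested models 7 were above 0, with a median log2 fold change of 0.09. At an unadjusted p under 0.05, 1 (ACADL) was higher and 1 (ACADVL) lower, beside 7.93% and 8.91% of all tested models. The summed level was 82.8 ± 5.14 RPKM with DMSO and 93.3 ± 4.03 RPKM with GW0742 (SD, n = 3). These counts, the median and the sum cover only the models found by the rule. They leave out further models with the same protein names. Among those is the main ACADVL model, described below, at 25.3 ± 1.18 RPKM with DMSO and 27.9 ± 1.55 RPKM with GW0742. ACADL (ENSSSCG00000016156), the long-chain enzyme, was at 53.8, 50.9 and 52.4 CPM with DMSO and at 63.3, 68.2 and 60.7 CPM with GW0742. All GW0742 libraries were above all DMSO libraries (log2 0.29 ± 0.07, edgeR adjusted p = 0.110, DESeq2 adjusted p = 0.0541). Over the alternatives its log2 fold change stayed between 0.24 and 0.33 and it passed in none.

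ACADM, the medium-chain enzyme and the one with the highest level per length among the models of this class found by the rule, was at 55.4, 48.4 and 48.5 CPM with DMSO and at 53.6, 59.9 and 51.8 CPM with GW0742. Those values overlapped (log2 0.12 ± 0.09, edgeR adjusted p = 0.525). The short-chain enzyme ACADS had a log2 fold change of 0.19 ± 0.13, also with overlap. ACAD9, known as an assembly factor of respiratory complex I, was at 13.9, 11.3 and 13.7 CPM with DMSO and at 15.5, 14.5 and 15.2 CPM with GW0742, without overlap (log2 0.21 ± 0.12, edgeR adjusted p = 0.401). ACADSB and ACAD8, which act on branched-chain intermediates, had log2 fold changes of -0.01 for ACADSB and of 0.27 and 0.07 for the 2 models of ACAD8. The ACAD8 model at 0.07 (ENSSSCG00000028123) carries the symbol VPS26B in the gene name table, and VPS26B lies close to ACAD8 in assembly Sscrofa11.1, so what this model measures is uncertain. ACAD10 and ACAD11 had log2 fold changes of -0.21 and 0.07, both with overlap. With its models summed, ACAD10 was at 15.6 ± 2.04 and 15.0 ± 3.54 CPM (log2 -0.05 ± 0.17), and ACAD8 was at 15.5 ± 1.73 and 17.1 ± 0.910 CPM (log2 0.14 ± 0.11).

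The very-long-chain enzyme ACADVL shows how the choice of model matters. The model with its symbol (ENSSSCG00000017947) was at 0.65, 1.28 and 0.78 CPM with DMSO and at 0.46, 0.56 and 0.07 CPM with GW0742, lower in every GW0742 library. Its log2 fold change was the lowest of all members, at -1.28 ± 0.55 (edgeR adjusted p = 0.285). It rests on 11, 17 and 13 reads with DMSO and 6, 9 and 1 with GW0742. A further model with the protein name of ACADVL (ENSSSCG00000020972) was at 64.6, 60.7 and 62.0 CPM with DMSO and at 72.4, 66.4 and 64.7 CPM with GW0742, slightly higher and without overlap (log2 0.12 ± 0.07, edgeR adjusted p = 0.421). Summed, ACADVL was at 63.3 ± 1.74 and 68.2 ± 4.21 CPM (log2 0.11 ± 0.07), so the direction seen in the model with the symbol was reversed in the sum. Per length, the further model had a mean of 26.6 RPKM, against 0.36 RPKM for the model with the symbol.

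The next steps of the spiral are hydration, a further oxidation and thiolysis. The mitochondrial trifunctional protein does all of them for long chains, with HADHA as its alpha and HADHB as its beta subunit. HADHB, the thiolase subunit, was at 95.9, 93.0 and 90.8 CPM with DMSO and at 111, 104 and 101 CPM with GW0742. Each GW0742 library was above each DMSO library (log2 0.18 ± 0.06, edgeR adjusted p = 0.213). HADHB was the 1 of 6 models of this step higher at an unadjusted p under 0.05, beside 7.93% of all tested models. HADHA was at 133, 117 and 120 CPM with DMSO and at 122, 126 and 111 CPM with GW0742, with overlap (log2 -0.05 ± 0.07, edgeR adjusted p = 0.797).

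HADHA and HADHB are direct neighbours in assembly Sscrofa11.1, with 0 protein-coding genes between them. The log2 ratio of HADHB to HADHA was -0.47, -0.33 and -0.41 with DMSO and -0.13, -0.28 and -0.13 with GW0742. The ratio was above all DMSO values in every GW0742 library, by 0.22 on average (exact two-sided permutation p = 0.1, the smallest possible, 0.15 after adjustment over the 3 pairs).

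The rest of this step was flat. ECHS1, in its main model (ENSSSCG00000010790), was at 135, 144 and 136 CPM with DMSO and at 126, 140 and 130 CPM with GW0742 (log2 -0.07 ± 0.06, edgeR adjusted p = 0.618). The groups overlapped, as they did in its second model, at a mean of 21.7 RPKM, and in HADH (log2 0.05) and the thiolase ACAA2 (log2 -0.08). The summed level of the 6 models was 274 ± 5.74 RPKM with DMSO and 276 ± 16.9 RPKM with GW0742.

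The auxiliary enzymes prepare unsaturated fatty acids for the spiral by moving or reducing double bonds. ECI2, an enoyl-CoA isomerase, was at 70.5, 75.4 and 69.7 CPM with DMSO and at 73.1, 67.2 and 71.2 CPM with GW0742, with overlap. Its log2 fold change was -0.03 ± 0.07, and the sign turned to 0.01 without DMSO replicate 2 or GW0742 replicate 2. ECH1 is a dienoyl-CoA isomerase, and the protein name of its model in the deposited annotation is peroxisomal enoyl coenzyme A hydratase 1. It was at 13.4, 13.7 and 13.1 CPM with DMSO and at 15.0, 15.6 and 15.4 CPM with GW0742. The groups were tight and did not overlap, but the difference was small (log2 0.19 ± 0.09, edgeR adjusted p = 0.347). ECI1 and the reductase DECR1 had log2 fold changes of -0.01 and -0.04. The ECI1 model was found by protein name and carries the symbol DNASE1L2, a gene that overlaps ECI1 in assembly Sscrofa11.1, so what this model measures is uncertain.

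Thioesterases release free fatty acids from coenzyme A, and uncoupling proteins sit in the inner mitochondrial membrane. ACOT9, the most abundant per length of the 4 models, was at 50.5, 49.5 and 52.7 CPM with DMSO and at 54.4, 53.6 and 47.0 CPM with GW0742. The groups overlapped (log2 0.02 ± 0.08, edgeR adjusted p = 0.919), and its sign turned in limma on the RPKM values (log2 -0.03) and without GW0742 replicate 1 or GW0742 replicate 2. ACOT13 was at 4.33, 6.08 and 4.86 CPM with DMSO and at 3.91, 4.86 and 4.38 CPM with GW0742, again with overlap (log2 -0.21 ± 0.19, edgeR adjusted p = 0.628). UCP3, an uncoupling protein known mainly from muscle, was at 1.41 and 1.33 CPM.

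The 3 ketone body enzymes were the class in which every tested member lay below 0, with a median log2 fold change of -0.23. Of all tested models, 49.7% lay above 0. None passed after adjustment, and 2 were lower at an unadjusted p under 0.05 (OXCT1 and ACAT1), beside 8.91% of all tested models. The groups did not overlap in 1, which was lower with GW0742, beside 12.1% of all tested models. OXCT1 (ENSSSCG00000016863), the transferase that commits acetoacetate to use as fuel, was at 15.4, 19.1 and 15.8 CPM with DMSO and at 14.2, 10.7 and 12.5 CPM with GW0742. All GW0742 libraries were below all DMSO libraries, with means of 16.8 ± 2.00 and 12.5 ± 1.79 CPM (SD, n = 3). The log2 fold change was -0.43 ± 0.14 (adjusted p = 0.187 in edgeR and 0.208 in DESeq2).

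ACAT1, the thiolase that splits acetoacetyl-CoA and also serves isoleucine breakdown, was at 132, 131 and 124 CPM with DMSO and at 124, 97.4 and 108 CPM with GW0742. The highest GW0742 library reached the lowest DMSO library, so the groups overlapped (log2 -0.23 ± 0.09, edgeR adjusted p = 0.236). BDH1, the dehydrogenase of hydroxybutyrate, was at 4.15, 9.09 and 4.26 CPM with DMSO and at 5.13, 4.80 and 5.03 CPM with GW0742. DMSO replicate 2 was high and the other DMSO libraries were below every GW0742 library (log2 -0.21 ± 0.30, edgeR adjusted p = 0.767). The class summed to 77.4 ± 3.16 RPKM with DMSO and 66.6 ± 6.96 RPKM with GW0742, nearly all of it from ACAT1.

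Propionyl-CoA carboxylase handles the propionyl-CoA left from odd chains and from amino acids. PCCB, its beta subunit, was at 47.5, 47.2 and 50.7 CPM with DMSO and at 57.0, 51.1 and 47.2 CPM with GW0742, with overlap (log2 0.09 ± 0.08, edgeR adjusted p = 0.620). PCCA, the alpha subunit, was at 2.85, 2.40 and 3.00 CPM with DMSO and at 2.37, 2.18 and 2.22 CPM with GW0742 in the model with its symbol. That model was lower in each GW0742 library (log2 -0.29 ± 0.20, edgeR adjusted p = 0.511). With its 3 models summed, PCCA was at 8.94 ± 0.848 and 8.93 ± 1.52 CPM, a log2 fold change of -0.00. The log2 ratio of PCCB to this sum overlapped between the groups (difference 0.10, exact two-sided permutation p = 0.7, also 0.7 after adjustment). Against the PCCA model with the symbol alone the log2 ratio was 4.06, 4.30 and 4.08 with DMSO and 4.58, 4.55 and 4.41 with GW0742, without overlap, so the choice of model decides whether the groups overlap. That ratio was not tested.

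**Figure D4:**
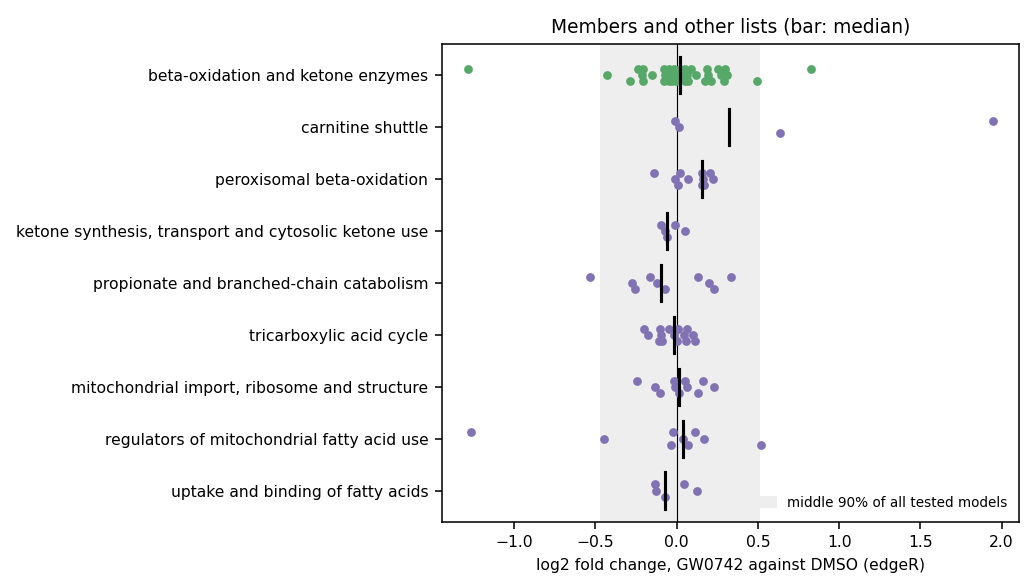
Log2 fold change of GW0742 against DMSO (x axis, edgeR) for the 37 tested models of the beta-oxidation and ketone enzymes (green) and for the tested genes of 8 neighbouring pathways (purple), with a black bar at each median and a grey band over the middle 90% of all tested models. CPT1A at 1.95 is the highest point. All enzymes but the minor ACSL5 and ACADVL models lie within the band, which runs from -0.46 to 0.51 and by definition holds 90% of all tested models.

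Genes of neighbouring pathways were measured in the same fit. They were found by gene symbol alone, so any further models of the same proteins without that symbol are not covered. Of 4 tested genes of the carnitine shuttle, which carries long-chain acyl groups into the mitochondrion, 1 rose in edgeR and 2 in DESeq2. CPT1A, its rate-limiting enzyme, rose from 35.3 ± 7.68 to 136 ± 8.45 CPM (log2 1.95 ± 0.14, edgeR adjusted p = 0.00151). SLC25A20, the acylcarnitine carrier, was at 29.2 and 45.5 CPM (log2 0.64 ± 0.10, adjusted p = 0.0509 in edgeR and 4.83e-05 in DESeq2), while CPT2 and CRAT were at -0.01 and 0.01. The difference between the shuttle and the spiral was not tested.

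None of the other lists had a member past the threshold in edgeR or DESeq2. Peroxisomal beta-oxidation, which shortens very long chains, had 9 of 11 tested genes above 0 and a median log2 fold change of 0.16. HSD17B4, a bifunctional enzyme of this pathway, was at 0.20 ± 0.08 (edgeR adjusted p = 0.259). EHHADH, SCP2 and AMACR of the same list had no model with their symbol. Of 5 tested genes of ketone synthesis and cytosolic ketone use 1 was above 0 (median -0.06), with AACS, acetoacetyl-CoA synthetase, at -0.09 (edgeR adjusted p = 0.683). In propionate and branched-chain catabolism 4 of 10 were above 0 (median -0.09). At an unadjusted p under 0.05, 2 were lower, beside 8.91% of all tested models. BCKDHB, a subunit of the branched-chain ketoacid dehydrogenase, was at 10.8 ± 1.35 and 7.44 ± 0.564 CPM (log2 -0.54 ± 0.14, edgeR adjusted p = 0.129), and MMUT, the mutase downstream of propionyl-CoA carboxylase, had a log2 fold change of -0.26 (edgeR adjusted p = 0.236).

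General mitochondrial genes lay around 0. The tricarboxylic acid cycle, which takes up the acetyl-CoA, had 7 of 15 tested genes above 0 (median -0.02), with IDH2, the mitochondrial isocitrate dehydrogenase, at -0.18 (edgeR adjusted p = 0.251). Genes of mitochondrial import, ribosome and structure had 6 of 11 above 0 (median 0.02), and TOMM22, an import receptor, was at 0.23 (edgeR adjusted p = 0.187). Among 9 tested regulators 5 were above 0. PPARD itself was at 51.5 and 55.7 CPM (log2 0.11, edgeR adjusted p = 0.499). PRKAA1, a catalytic subunit of AMP-activated kinase, was at 19.8, 21.0 and 17.1 CPM with DMSO and at 5.67, 2.68 and 15.6 CPM with GW0742, low in 2 of the 3 GW0742 libraries (log2 -1.27 ± 0.47, edgeR adjusted p = 0.233). PPARGC1A, a coactivator of mitochondrial biogenesis, was too low to test. Of 5 tested genes of fatty acid uptake and binding 2 were above 0 (median -0.07), and VLDLR, a lipoprotein receptor, was at -0.12 (edgeR adjusted p = 0.370).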

How the data were processed

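Per the labels' protocols, oligo(dT) beads were used to enrich mRNA, which was then fragmented, copied from random hexamers and sequenced on an Ion Proton. The steps named do not mark the strand. The build, per the submitters' processing notes, is Sscrofa 10.2. An aligner or counting program is not given in the sources used here. Per the file headers, the authors deposited, for each model, estimated counts and RPKM. The RPKM of a model with several transcripts is the sum over them. The gene name table gave 11147 models a symbol. A genome sequence was not used here, so no coordinates or sequences are given.

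Estimated counts were rounded to whole numbers, filtered with filterByExpr (minimum count 10), TMM-scaled, then tested by quasi-likelihood (edgeR 4.0.16, R 4.3.3), without a block. P-values are two-sided, with Benjamini-Hochberg adjustment over all 14146 tested models. The test was tested on simulated data. CPM uses TMM-scaled library sizes, and the SE is the log2 fold change over the root of F. Within groups, library pairs gave chi-square values of 4.06 to 14.9 per degree of freedom, so no pair agreed within sampling noise.

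Alternatives were DESeq2 1.42.0, median-of-ratios size factors, no filter, limma 3.58.1 on log2(RPKM + 1) and log2(RPKM + 0.1), the replicate block, leaving out each library, and summed models of 1 protein name. The members, lists and subunit pairs were chosen with earlier results of these data known. The rule for named genes took models with an adjusted or unadjusted p under 0.05 and, in each class, the highest in RPKM and, at a mean of at least 1 CPM, the most changed. Of each other list, genes past the threshold (up to 3) and the one with the smallest p were named. Further members, the subunit partners and other genes were named after their values were seen.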

Additional observations from a re-analysis of the deposited data

How the results depend on the processing

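Of 232 log2 fold changes of the 18 models chosen by the rule for named genes under 13 alternatives, 223 kept their direction and their side of the threshold, 2 passed it and 7 reversed. None of the 18 models passed in the main fit, so staying on that side says little. Values that shrank also count as kept, such as PCCA at -0.289 in the main fit and -0.003 with models summed. Those that passed were ETFB in DESeq2 and with models of 1 protein name summed, where 1 member each was higher instead of 0, and 0 members were lower under every alternative. Reversed values were ACADVL in the summed models (0.107, where the main model of its protein is added), ACOT9 without GW0742 replicate 1 (-0.015), without GW0742 replicate 2 (-0.006) and in limma with a pseudocount of 1 (-0.030) and of 0.1 (-0.031), and ECI2 without DMSO replicate 2 (0.007) and without GW0742 replicate 2 (0.006). With 1 library left out ACOT9 ran from -0.015 to 0.085 and ECI2 from -0.052 to 0.007. The cause of the ACOT9 and ECI2 reversals was not tested. Members lower at an unadjusted p under 0.05 numbered 1 to 3 with 1 library left out, with fewer samples in each fit, and members higher numbered 5 to 8 over all alternatives. The median log2 fold change of the members was 0.056 without a filter, which adds 2 models, and 0.021 with it, against a spread of 0.023 (SD) between libraries. Same-numbered libraries of the groups did not deviate together (correlations of 0.005, -0.032 and -0.103). With 3 libraries per group, these correlations cannot show whether such libraries shared a culture or a preparation, which the labels do not say. With the replicate block 0 members were higher and 0 lower, 6 and 3 at an unadjusted p under 0.05, with a median of 0.020 and ETFB at an adjusted p of 0.144. Models with few reads, such as UCP2, ACSL6 and the ACADVL model with the symbol, are limited by depth.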
